A study of Mus musculus with 18 samples.

Results

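The 8 genes described here are the α-arrestins Arrdc1, Arrdc2, Arrdc3, Arrdc4 and Arrdc5, the glucose sensors Mlxip (MondoA) and Mlxipl (ChREBP), and Mlx, the partner of both sensors. They are 8 of the 54532 genes in the count tables and were found by their symbol. The group was chosen by gene name with earlier Txnip-against-control values of these same libraries in view. The Txnip differences of the 8 genes are therefore given as a description, and Txnip itself is left out. Their exonic lengths and positions are those of GRCm38. The libraries hold RNA from cones of wild-type mice of 2 strains. Neonatal eyes were injected at P0, and the cones were sorted by flow cytometry for nuclear GFP. BALB/c mice are albino and were taken at P21, with 6 control and 6 Txnip libraries. C57BL/6J mice are pigmented, carry a null mutation of Nnt, and were taken at P35, with 3 control and 3 Txnip libraries. All eyes received an AAV8 vector with the SynP136 promoter driving H2BGFP, which marks cones, and the Txnip eyes also received AAV8 with Txnip under the human red opsin promoter, RedO. Control eyes received no other vector in its place, so added Txnip and added vector cannot be told apart. The study's methods describe RedO as stronger but less cone-specific than SynP136, with weak activity in some rods. Each library came from 1 retina. Which retinas came from the same mouse was not given, so p-values measure the spread between libraries only.

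Txnip and the 5 Arrdc genes make up the α-arrestin family, adaptors that recruit Nedd4-type ubiquitin ligases to membrane proteins and so govern how long receptors and transporters stay at the cell surface. Mlxip and Mlxipl bind DNA as heterodimers with Mlx once glucose-6-phosphate is plentiful, at E-box sequences in the promoters of their targets. Txnip and Arrdc4 are the best known targets of the Mlxip and Mlx pair, and both lower glucose uptake when their proteins accumulate.

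The promoter sequences of the 8 genes are shown where they hold an E-box, because the question asked of Arrdc4 is whether its mRNA follows Mlxip and Mlx. All 8 symbols matched RefSeq promoters of GRCm38.p6, the build of the count tables, and they gave 11 promoters. The letters CACGTG, which read the same on both strands, were looked for in the 250 bases before each start. They occurred in 1 promoter each of Arrdc4, Mlxipl and Mlx, and in 6.02% of all 32851 promoters. The 30 bases around each match follow, read 5′ to 3′ on the strand of the gene, with the E-box in capitals.
Arrdc4 promoter, chr7:68749414-68749443, minus strand: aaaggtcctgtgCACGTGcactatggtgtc
Mlxipl promoter, chr5:135089780-135089809, plus strand: gcggctgccatcCACGTGctaaggagagaa
Mlx promoter, chr11:101087238-101087267, plus strand: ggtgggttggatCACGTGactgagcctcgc
The E-box began 193 bases before the start of Arrdc4, 98 before 1 of the starts of Mlxipl and 40 before the start of Mlx. The looser letters CACGNG, read on either strand and repeated in the same orientation after 5 bases, were in none of the 11 promoters and in 0.0457% of all promoters. Pairs in opposite orientation were not looked for, so these values do not say whether an element the sensors bind is present. These are matches of letters, not measured binding.

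Library totals ran from 647712 to 5172156 counts, and BALB/c Txnip libraries 6 and 5 were the smallest. In this range, 3 counts, taken as the floor of detection, were worth 0.577 to 4.61 CPM (counts scaled by library size and TMM factor), and such values cover counting error only. Genes of the ribosomal RNA locus took 3.27% to 27.5% of counts. Txnip was at 0 to 3 counts in the 9 control libraries and at 663 to 8536 in the 9 Txnip libraries, so the labels held. All 8 cone markers were detected in every group, at 3.17% to 8.86% of counts in all. The 8 rod markers took 0.804% to 2.19% of counts, most of it Sag, which cones express too. The 5 Mueller glia markers took 0.00627% to 0.0660% and the 5 bipolar markers 0.00520% to 0.0378%, with the lowest and the highest values of both lists among C57BL/6J libraries, and all were detected in each group. The 3 endothelial, 4 microglial and 4 pigment epithelial markers took at most 0.00314%, 0.00272% and 0.000658% of counts.

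Levels here are of RNA from a sorted pool, so fewer cells of a type and less RNA per cell cannot be told apart. Per kilobase of exons, Mlx was the most abundant of the 8 genes in control cones and Mlxipl the least. In BALB/c control libraries, Mlx stood at 19.9 ± 1.87 CPM per kb (SD, n = 6) and Arrdc3 at 11.8 ± 1.97, and their ranges did not overlap. Arrdc5, Arrdc1, Mlxip, Arrdc2 and Arrdc4 followed, from 3.60 down to 1.20 CPM per kb, and each neighbour in that order overlapped the next. Mlxipl was last, at 0.0440 CPM per kb. In C57BL/6J control libraries Mlx was again first, at 28.9 ± 5.77 CPM per kb (SD, n = 3), ahead of Arrdc3 at 6.92 ± 1.68. Arrdc1, Arrdc5, Mlxip and Arrdc2 overlapped from neighbour to neighbour, while Arrdc4, at 0.573 CPM per kb, lay below all of them except the lowest Arrdc5 library.

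**Figure D1:**
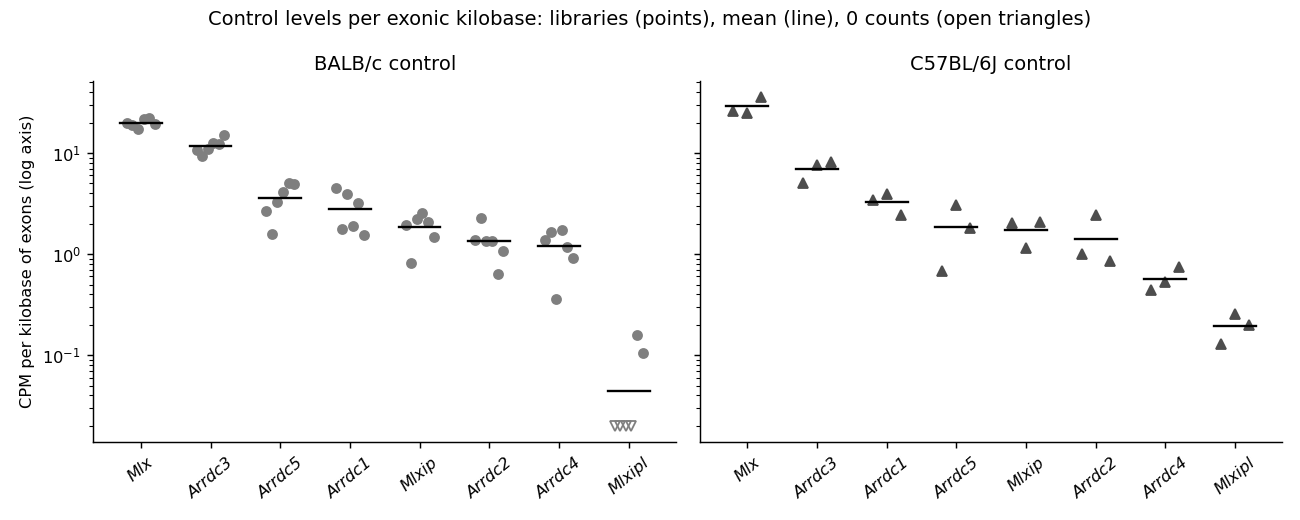
Levels per kilobase of exons (CPM per kb, log axis) of the 8 genes in the 6 BALB/c and 3 C57BL/6J control libraries, ordered by mean; points are libraries, lines are means and open triangles mark libraries at 0 counts, drawn at an arbitrary height. Mlx and Arrdc3 lie above the others in both strains, with Mlxipl lowest at a mean of 0.0440 and 0.195 CPM per kb.

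Arrdc3 (chr13:80883384-80896042, plus strand), an adaptor that promotes ubiquitination of β-adrenergic receptors and integrin β4, carried more than any other α-arrestin of the 5. It made up 56.8% ± 4.10 of their summed level per kb in BALB/c control cones (SD, n = 6) and 49.7% ± 7.88 in C57BL/6J control cones (SD, n = 3). On the CPM scale, BALB/c control libraries ran from 58.9 to 94.8 with a median of 73.0, and BALB/c Txnip libraries from 55.7 to 72.8 with a median of 62.4. The C57BL/6J control libraries read 31.4, 47.2 and 51.4 CPM, and the C57BL/6J Txnip libraries 50.8, 47.3 and 74.6. Every BALB/c control library was above every C57BL/6J control library.

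Arrdc4 (chr7:68736995-68749241, minus strand), which like Txnip is transcribed when Mlxip and Mlx sense glucose, was scarce throughout, with 1 to 19 counts in a library. BALB/c control libraries held 3 to 19 counts of Arrdc4 with a median of 14, and BALB/c Txnip libraries held 1 to 13 with a median of 1.5. On the CPM scale this was 4.86 ± 2.08 in BALB/c control cones and 1.47 ± 1.05 in BALB/c Txnip cones (SD, n = 6 each). Only control library 3, at 1.47 CPM, lay inside the Txnip range, whose highest value was 3.14 CPM in Txnip library 1. The Txnip libraries 3 to 6 held at most 2 counts each, under the floor, and in library 6 the floor of 3 counts was worth 4.61 CPM. In C57BL/6J the order of the groups was the opposite. The control libraries held 5, 6 and 11 counts (1.79, 2.13 and 3.02 CPM) and the Txnip libraries 19, 9 and 18 (5.11, 3.27 and 4.12 CPM), without overlap.

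The remaining α-arrestins were low and varied between libraries of a group. Arrdc1 (chr2:24925352-24935252, minus strand), which recruits Tsg101 to bud vesicles from the plasma membrane, was at 7.02 ± 3.09 CPM in BALB/c control, 6.41 ± 2.81 in BALB/c Txnip, 8.19 ± 1.97 in C57BL/6J control and 8.39 ± 1.94 in C57BL/6J Txnip cones (SD). Arrdc2 (chr8:70835129-70839720, minus strand) stood at 4.35 ± 1.71, 4.37 ± 3.26 and 4.59 ± 2.80 CPM in the first 3 of these groups. In the C57BL/6J Txnip libraries Arrdc2 read 13.2, 11.6 and 6.18 CPM, against 3.21, 7.81 and 2.75 in the C57BL/6J controls, so 1 control library lay inside the Txnip range. Arrdc5 (chr17:56294111-56300286, minus strand) had 2 to 31 counts in a library and was at 3.80 ± 1.43 and 4.56 ± 1.27 CPM in BALB/c control and Txnip cones, and at 1.94 ± 1.24 and 1.72 ± 0.864 in C57BL/6J control and Txnip cones. Among libraries of 1 group, the coefficient of variation of Arrdc2 in BALB/c Txnip cones was 74.7%, where counting error alone gives 39.3%. For Arrdc4 in the same group the values were 71.2% and 63.3%, and in C57BL/6J controls its 27.6% was below the 37.2% of counting error.

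**Figure D2:**
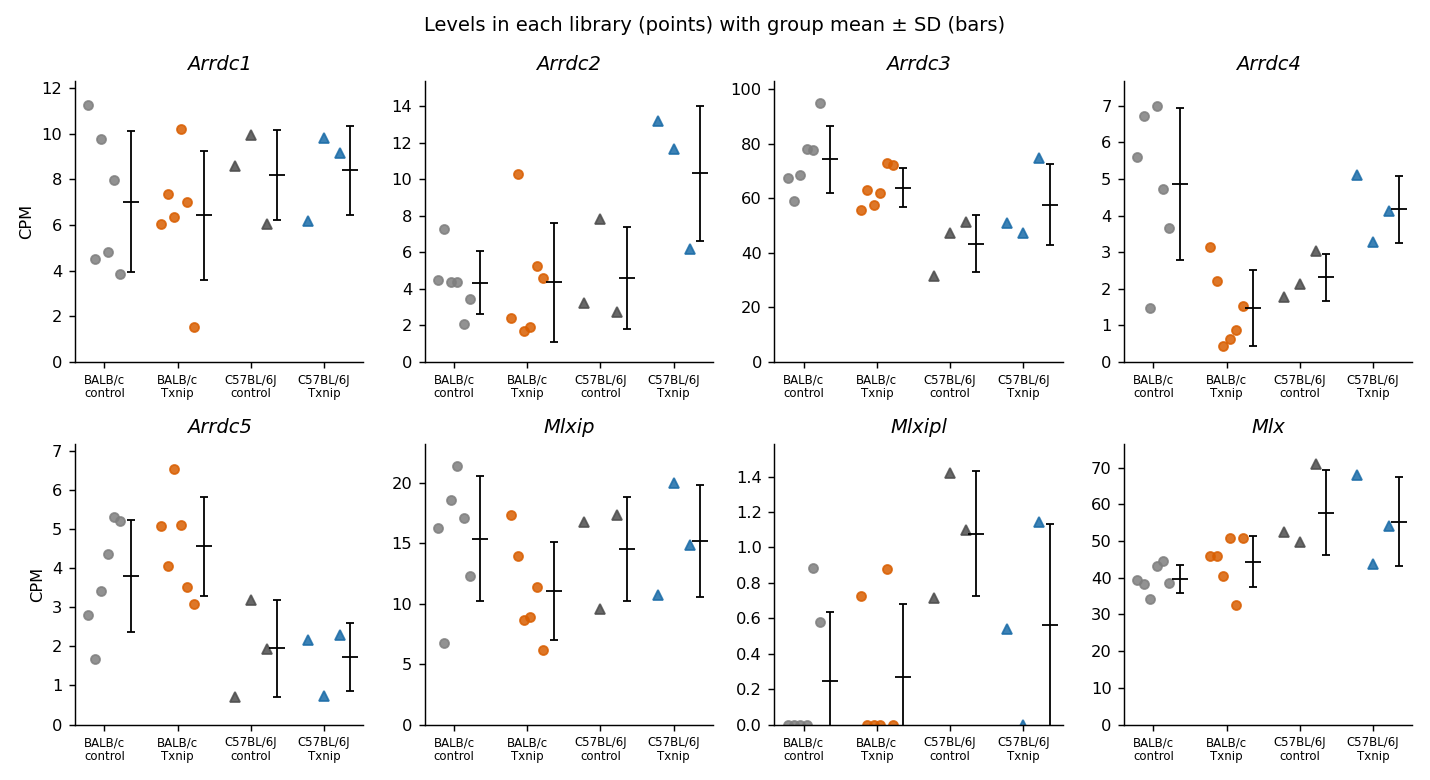
Level (CPM, TMM-scaled) of each of the 8 genes in every library, with 1 panel a gene; circles are BALB/c at P21, triangles C57BL/6J at P35, and the black bars give the group mean ± SD (6 libraries a group in BALB/c, 3 in C57BL/6J), cut at 0. Arrdc4 was lower in BALB/c Txnip than in BALB/c control cones by group mean (1.47 against 4.86 CPM) and higher in C57BL/6J Txnip than in C57BL/6J control cones (4.17 against 2.31 CPM).

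Of the sensors, Mlxip (chr5:123394798-123457932, plus strand) was far the more abundant. It was at 15.4 ± 5.18 CPM in BALB/c control, 11.1 ± 4.08 in BALB/c Txnip, 14.6 ± 4.32 in C57BL/6J control and 15.2 ± 4.64 in C57BL/6J Txnip cones (SD), and the ranges of all 4 groups overlapped. Mlxipl (chr5:135089890-135138382, plus strand), best known in liver and fat, reached at most 5 counts in a library and was at 0 in 4 of 6 BALB/c control, 4 of 6 BALB/c Txnip, 0 of 3 C57BL/6J control and 1 of 3 C57BL/6J Txnip libraries. Per kb, Mlxip made up 97.7% ± 3.57 of the level of both sensors in BALB/c control cones (SD, n = 6) and 89.0% ± 6.41 in C57BL/6J control cones (SD, n = 3). With so few Mlxipl counts, a difference in Mlxipl between groups was not detectable at this depth.

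Mlx (chr11:101087277-101092207, plus strand), the DNA-binding partner that both sensors need, exceeded Mlxip per kb in every library. The level of Mlx per kb was 12.3 ± 5.87 times that of Mlxip in BALB/c control cones (SD, n = 6) and 17.2 ± 4.29 times in C57BL/6J control cones (SD, n = 3). BALB/c control libraries ran from 34.2 to 44.6 CPM with a median of 39.0, and BALB/c Txnip libraries from 32.4 to 50.9 with a median of 45.9. The C57BL/6J control libraries read 52.5, 49.7 and 70.9 CPM and the C57BL/6J Txnip libraries 68.0, 43.7 and 54.2. All 3 C57BL/6J control libraries were above all 6 BALB/c control libraries. Mlx shares 385 exonic bases, 19.3% of its exons, with Psmc3ip on the opposite strand. Counting ignored strand and let a read count for each gene it overlapped, so reads from the shared stretch were counted for both. Mlxip and Mlxipl share 3.21% and 4.24% of their exonic bases with Gm15747 and Gm43500, which had at most 6 and 2 counts.

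The effect of Txnip on the 8 genes was asked within each strain. In BALB/c, 4 of the 8 passed the filter on low counts and 0 of the 4 were called by edgeR's quasi-likelihood test at a Benjamini-Hochberg adjusted p under 0.05, a rule that called 0.0166% of the 12017 genes tested. At an unadjusted p under 0.05 the same fit held 1372 genes, Arrdc3 among them, and DESeq2 called 78 genes and 0 of the 4 members it gave an adjusted p. The log2 difference, Txnip minus control, of Arrdc3 was -0.26 ± 0.12 (SE; edgeR adjusted p = 0.403). That of Mlxip was -0.40 ± 0.27 (adjusted p = 0.589). Mlx stood at 0.15 ± 0.13 and Arrdc1 at -0.03 ± 0.33. The median over the 4 was -0.14, beside 0.00024 over all genes tested. Arrdc2, Arrdc4, Arrdc5 and Mlxipl were too low to pass. Arrdc4 passed in the fit over all 4 groups, with 5 of 6 BALB/c control and 0 of 6 BALB/c Txnip libraries over its filter's level, so the values of that fit are a description of a gene kept through the group in which it was higher. Its log2 difference in BALB/c was -1.60 ± 0.49 (SE; edgeR adjusted p = 0.233), and with all genes of at least 1 count it was -1.58 ± 0.53 (adjusted p = 0.0693). That setting called 1400 of 40933 genes, only 165 of them higher, and its median log2 difference over all genes was -0.23. Without BALB/c Txnip libraries 5 and 6, the smallest, the Arrdc4 difference was -1.49 ± 0.53 (adjusted p = 0.469), an alternative chosen after seeing the data. By CPM range, 0 of the 4 tested genes separated the 2 BALB/c groups, a pattern that held for 0.699% of all genes tested.

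The summed share of the 5 amacrine markers, a list singled out after its values were seen, did not overlap between the BALB/c groups. It ran from 0.0237% to 0.0326% in control and from 0.0341% to 0.0448% in Txnip libraries. All 5 were detected in each group. The median of Gad1 was 108 CPM in control and 192 in Txnip libraries, that of Pax6 53.4 and 82.5, and that of Slc6a9 108 and 93.5. Gad2 and Tfap2a were lower, with medians of 10.6 and 1.58 CPM in control and 13.1 and 4.14 in Txnip libraries. Rod marker shares overlapped between the BALB/c groups. Whether the amacrine share has a part in the values of Arrdc3, Arrdc4 or Mlxip was not tested.

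In C57BL/6J, 6 of the 8 genes passed the filter and 0 of the 6 were called by edgeR at the same threshold, which called 0.0154% of 12974 genes. At an unadjusted p under 0.05 there were 97 genes, with 0 of the 6 among them, and DESeq2 called 2 genes and 0 of the 8. The log2 difference, Txnip minus control, was 1.16 ± 0.55 for Arrdc2, 0.83 ± 0.54 for Arrdc4 and 0.41 ± 0.27 for Arrdc3 (SE; edgeR adjusted p = 1.00 for each). That of Arrdc2 was 1.77 without C57BL/6J control library 2, the control inside the Txnip range. With any other C57BL/6J library left out, the Arrdc2 difference ran from 0.88 to 1.39. The Arrdc3 difference was 0.15 without Txnip library 3 and 0.23 without control library 1. Arrdc5 and Mlxipl were too low to pass. Arrdc1 stood at 0.04 ± 0.42, Mlxip at 0.06 ± 0.38 and Mlx at -0.07 ± 0.23. The median over the 6 was 0.24, beside 0.01 over all genes tested. The libraries of Arrdc4 did not overlap between groups, as was the case for 4.42% of all genes tested. Arrdc4 passed the filter through its Txnip libraries, of which all 3 were over the filter's 2.84 CPM against 1 of 3 control libraries, so nothing is read from its separation or from the median that includes it.

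**Figure D3:**
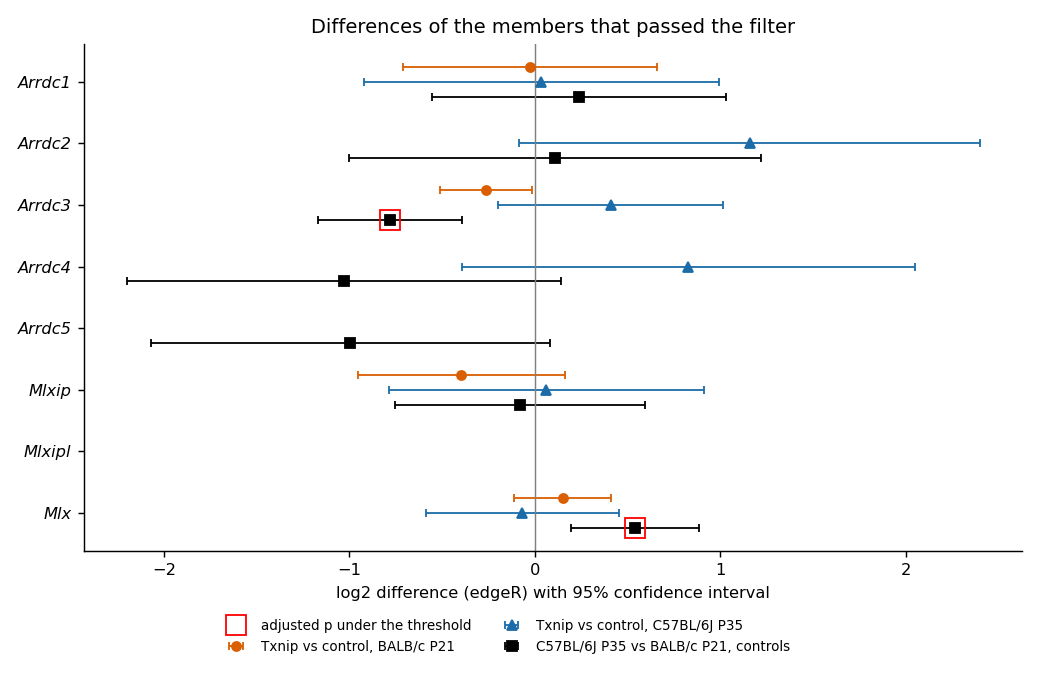
Fitted log2 differences with 95% confidence intervals (edgeR) for Txnip against control in BALB/c (orange circles) and in C57BL/6J (blue triangles) and for C57BL/6J at P35 against BALB/c at P21 among controls (black squares); a gene has no point where it was too low to be tested, and red outlines mark an adjusted p under 0.05. Only Arrdc3 (-0.78) and Mlx (0.54) are outlined, both in the comparison of control cones.

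Whether Txnip acted on these genes differently in the 2 strains was asked with an interaction term in the fit over all 18 libraries. No gene was called (0% of 14751 tested by edgeR; 706 at an unadjusted p under 0.05, and 0 by DESeq2), and so 0 of the 7 members tested. Arrdc4 had the widest gap of the 7, with a C57BL/6J minus BALB/c difference of effects of 2.43 on the log2 scale (95% confidence interval 0.78 to 4.08; edgeR adjusted p = 0.906, and 0.293 to 1.00 over the alternatives). Arrdc4 passed the filter of this fit through 5 BALB/c control and 2 C57BL/6J Txnip libraries, with 0 over its level of 3.46 CPM in each of the other 2 groups, so the filter kept it through the groups in which it was higher. For Arrdc3 the difference of effects was 0.66 (0.12 to 1.19; edgeR adjusted p = 0.916). For Arrdc2 it was 1.16 (-0.39 to 2.71), and 1.77 without either C57BL/6J control library 2 or BALB/c Txnip library 2. For Mlxip it was 0.46 (-0.50 to 1.42), for Mlx -0.22 (-0.71 to 0.28), for Arrdc1 0.08 (-1.05 to 1.21) and for Arrdc5 -0.41 (-1.91 to 1.10). Without both smallest libraries the Arrdc4 value was 2.34. The contrasting Arrdc4 values of the strains are thus a description and not a called difference, and strain and age cannot be told apart in them.

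Control cones of the strains were compared in the same fit. Of the 7 genes tested, 1 was lower and 1 higher in C57BL/6J at P35 than in BALB/c at P21, by edgeR at an adjusted p under 0.05. Of all 14751 genes, 17.5% were called, 9.52% lower and 8.03% higher, so the 2 of 7 stand against a background in which calls were common. Arrdc3 was lower, with a log2 difference of -0.78 ± 0.19 (SE; edgeR adjusted p = 0.00525), and its call held in every alternative, with an adjusted p of at most 0.0395. Mlx was higher, with a log2 difference of 0.54 ± 0.17 (SE; edgeR adjusted p = 0.0283). The Mlx call ended in 6 alternatives, among them leaving out C57BL/6J control library 3, which holds the highest Mlx level (0.36, adjusted p = 0.245), and leaving out BALB/c control library 1, 3 or 6 (0.48 to 0.51, adjusted p = 0.0518 to 0.0645). The others were a fit with the replicate number as a block (0.58, adjusted p = 0.0682) and one of all genes with at least 1 count (0.54, adjusted p = 0.0939). Psmc3ip, which shares exonic bases with Mlx, stood at a log2 difference of 0.62 ± 0.23 in the same comparison (edgeR adjusted p = 0.0692), and its part in the Mlx value was not tested.

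The other 5 members were not called between the strains. Arrdc4 and Arrdc5 had log2 differences of -1.03 ± 0.56 and -0.99 ± 0.52 (SE; edgeR adjusted p = 0.223 and 0.198), with intervals that reached from -2.20 to 0.14 and from -2.07 to 0.08, and among control libraries both were over the filter's level in BALB/c alone. Arrdc1 was at 0.24 ± 0.38, Arrdc2 at 0.11 ± 0.54 and Mlxip at -0.08 ± 0.32. By CPM range, Arrdc3 and Mlx were the 2 of 7 tested genes whose control groups did not overlap, against 18.6% of all genes. Strain, age, the Nnt allele and the project directory named in the count table headers changed together, and their parts cannot be told apart. The amacrine share was 0.0104% to 0.0331% in C57BL/6J control libraries and overlapped that of BALB/c. Of its 5 genes, 4 had a lower median in C57BL/6J than in BALB/c control libraries: Gad1 (24.5 against 108 CPM) and Gad2 (2.75 against 10.6), each without overlap, Pax6 (10.4 against 53.4) and Tfap2a, which reached at most 1.43 and 3.42 CPM. Slc6a9 had a higher one (137 against 108 CPM). Beyond the alternative fits with a rod share covariate, whether cells other than cones have a part in these differences was not tested.

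Whether Arrdc4 tracked Mlxip or Mlx was asked across the libraries of each strain, on the log2 CPM scale, with 4 relations in all. In the 12 BALB/c libraries Arrdc4 averaged 8.33 counts, so the correlations are given as a description. Arrdc4 against Mlxip had Pearson's r = 0.39 and Spearman's coefficient = 0.38, and r = 0.80 without BALB/c control 2 and BALB/c Txnip 6, the libraries farthest from the Mlxip median. Within groups r was -0.28 among the 6 control and 0.61 among the 6 Txnip libraries, and 0.14 once the group means were taken off. Arrdc4 against Mlx had r = -0.02 and a Spearman's coefficient of -0.12 in BALB/c, and -0.50 without the 2 libraries farthest from the Mlx median. Within groups r against Mlx was 0.70 among the 6 control and 0.30 among the 6 Txnip libraries, and 0.42 once the group means were taken off.

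In the 6 C57BL/6J libraries Arrdc4 averaged 11.3 counts. Against Mlxip its Pearson's r was -0.11 (two-sided exact permutation p = 0.838, adjusted over the 4 relations 0.940) and Spearman's coefficient -0.09 (exact permutation p = 0.919, adjusted 0.919). Against Mlx r was 0.41 (two-sided exact permutation p = 0.418, adjusted 0.836) and Spearman's coefficient 0.31 (exact permutation p = 0.564, adjusted 0.919). Without the 2 libraries farthest from the median, these r values were -0.18 and -0.08 over 4 libraries, too few to settle either relation, and neither had passed the test over all 6. With 1 library left out, r against Mlx stayed between 0.0951 and 0.595. With the group means taken off, Arrdc4 against Mlx in C57BL/6J had r = 0.94, a value over 6 libraries of which 4 are free to vary.

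**Figure D4:**
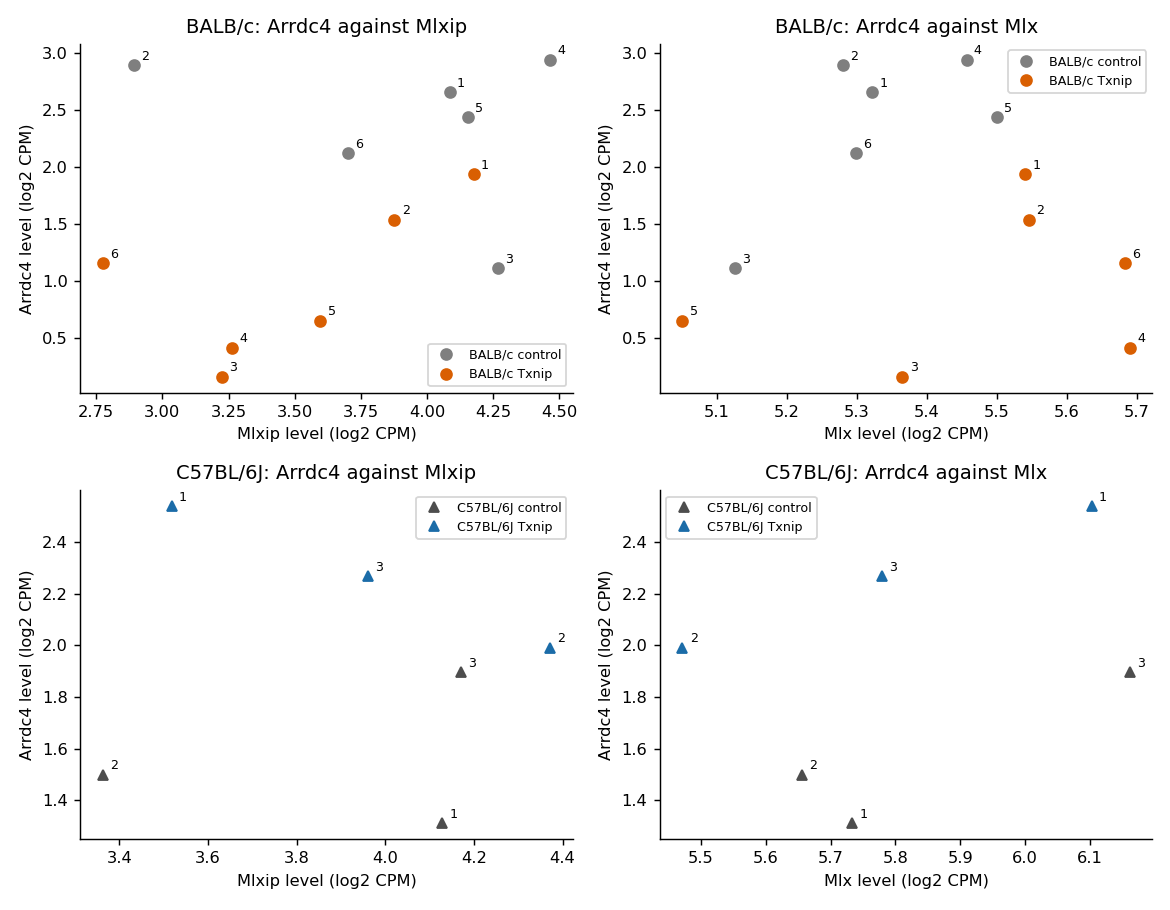
Arrdc4 level against the level of Mlxip (left) and Mlx (right), both in log2 CPM with a prior count of 2, in the 12 BALB/c libraries (top) and the 6 C57BL/6J libraries (bottom); points are libraries, labelled with their replicate number and coloured by treatment. No panel shows an even rise: r is 0.39 and -0.02 in BALB/c and -0.11 and 0.41 in C57BL/6J.

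The genes whose levels ran most like those of Mlxip and Mlx were looked up after the mean of each of the 4 groups was taken off, over all 18 libraries. For Mlxip, among 11484 genes, they were Gdf1 (r = 0.82), Ethe1 (0.79) and Grin1 (0.78). For Mlx, among 11483 genes, they were Kif1bp (r = 0.87), Prnp (0.85) and Suclg1 (0.85). These are the highest 3 among all those correlations, across libraries that also share depth and composition, and they are given as a description. Arrdc4 did not pass the filter in both strains and was not looked up. On this measure r was 0.08 between Arrdc4 and Mlxip and 0.46 between Arrdc4 and Mlx.

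Genes that work with the 8 were read from fixed lists, each of which held 0 called genes in either Txnip comparison. With 0.0166% of all genes called in BALB/c and 0.0154% in C57BL/6J, these counts say nothing about the lists. Of the 18 glucose response genes, 11 were tested in BALB/c with a median log2 difference of 0.16, and 11 in C57BL/6J with a median of 0.02. Acly, which makes cytosolic acetyl-CoA, and Hk2, a hexokinase, were the most abundant per kb, with log2 differences of -0.12 ± 0.08 and 0.34 ± 0.15 in BALB/c and 0.12 ± 0.26 and -0.01 ± 0.24 in C57BL/6J (SE). Of 9 Nedd4 family ligases, the enzymes that α-arrestins recruit, 9 and 8 were tested, with medians of 0.0019 and 0.06, and the most abundant, Nedd4 and Nedd4l, stood at -0.15 and 0.00188 in BALB/c and 0.21 and -0.02 in C57BL/6J. Of 10 partners of Mlx and Max, 7 were tested in each strain, with medians of -0.14 and 0.01, and the most abundant, Mxd1 and Max, stood at -0.27 and 0.02 in BALB/c and 0.20 and 0.01 in C57BL/6J. Of the 14-3-3 list, 6 of 7 were tested in each strain (medians -0.06 and 0.01), and of the visual and β-arrestins 3 of 4 (0.02 and 0.09). Of the 7 cargo and partner genes, 5 and 6 were tested (medians -0.12 and 0.04). The smallest adjusted p in any of the lists was 0.108, for Tsg101 in BALB/c (log2 difference -0.45 ± 0.11, SE; edgeR), a gene of vesicle budding that Arrdc1 binds.

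Between control cones of the strains, the lists held genes called by edgeR, beside the 17.5% of all genes called. Among the 13 tested glucose response genes, 1 was higher in C57BL/6J at P35 and 2 were lower. Hk2 had a log2 difference of 1.19 ± 0.20 (SE), while Acacb, a mitochondrial acetyl-CoA carboxylase, stood at -2.58 ± 0.47 and Acly at -0.55 ± 0.15. Among the 9 Nedd4 family ligases, 3 were lower, Hecw2 (-2.64 ± 0.68), Hecw1 (-2.27 ± 0.61) and Nedd4 (-0.75 ± 0.19). Hecw2 passed the filter of the BALB/c fit but not that of the C57BL/6J fit. It was thus kept through the strain in which it was higher, and its value is a description. Among the 8 tested partners of Mlx and Max, 1 was higher, Mxd4, which represses E-box genes (0.86 ± 0.20). Of 6 tested cargo and partner genes, the glucose transporter Slc2a1 was higher (0.99 ± 0.14). Of the 4 visual and β-arrestins, the cone arrestin Arr3 was higher (0.98 ± 0.17). Of 6 tested 14-3-3 proteins, which hold the sensors in the cytoplasm, 3 were lower: Ywhah (-1.03 ± 0.32), Ywhab (-0.91 ± 0.14) and Ywhag (-0.60 ± 0.20).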

How the data were processed

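RNA of sorted cones was sequenced after a modified Smart-Seq2 protocol, from 1 retina per library. Libraries of BALB/c and C57BL/6J come from separate project directories, per the file headers. The authors aligned reads to GRCm38.p6 (STAR is named in the submitters' processing notes, version not given in the sources used here) and counted them per gene with featureCounts (1.6.2 in the file headers), unstranded, with reads that overlap several genes counted for each. The deposited values used here are these raw read counts, 1 table per library. Tables of the authors' DESeq2 fold changes and p-values hold their own comparisons and were not used. Values of 1 marker gene are not reported here. Library totals ran from 647712 to 5172156 counts.

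Counts were tested with edgeR 4.0.16 (filterByExpr, TMM, glmQLFit and glmQLFTest, Benjamini-Hochberg adjustment over all genes tested, threshold 0.05): each strain on its own for Txnip against control, and all 18 libraries in 1 fit for the controls of the strains and for the interaction. Levels are CPM on TMM library sizes over all 18 libraries; log2 levels have a prior count of 2. Correlations used permutation tests, exact for 6 libraries. Scripts were tested on simulated data. Alternatives were DESeq2 1.42.0, its size factors, other filters, genes left out, a rod share covariate, a replicate block, other sample sets and each library left out. All 8 members are named. List genes are named where called (at most 4 a list) and otherwise as the 2 most abundant per kb. Overlapping genes and the 3 most alike are named too. The amacrine markers were named after their values were seen. Members and lists were chosen with earlier results of these data known. No 2 libraries of a group agreed within sampling noise.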

Additional observations from a re-analysis of the deposited data

How the results depend on the processing

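Of 549 log2 differences of the 8 genes under the alternatives, 522 kept their sign and 27 turned, in 8 of the 24 differences. Between the strains, Mlx lost its call in 6 alternatives, Arrdc2 turned in 3 (-0.18 with a replicate block, and -0.52 to 0.39 with 1 library left out) and Mlxip in 2 (-0.23 to 0.12 with 1 left out). For Txnip in BALB/c, Arrdc1 turned in 7 (up to 0.16). For Txnip in C57BL/6J, Arrdc1 turned in 4 (down to -0.16), Mlxip in 2 (down to -0.21) and Mlx in 2 (up to 0.10). In the interaction, Arrdc1 turned in 6 (down to -0.11) and Arrdc5 in 1 (0.11). None of these turned values belonged to a called difference, and the cause of the changes was not tested.

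Keeping all genes with at least 1 count gave 1400 genes called for Txnip in BALB/c, 5 in C57BL/6J, 186 for the interaction, and 1 member between the strains. Requiring 10 counts in every library gave 0 for Txnip in BALB/c and 0 in C57BL/6J, a filter that drops Txnip itself, and 1507 between the strains. DESeq2 gave 78 in BALB/c, and the rod share covariate without Sag, chosen after seeing the data, 133. With 1 library left out, calls ran from 2 to 258 in BALB/c (258 without Txnip library 1, 23 without control library 1, 6 without Txnip library 2), from 1605 to 2930 between the strains (1605 without C57BL/6J control 3) and from 0 to 1 for the interaction (1 without C57BL/6J control 1), and members called between the strains from 1 to 2.

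The replicate numbers did not pair the libraries: correlations of same-numbered libraries ran from -0.10 to 0.14, and none was highest with its own number. With the replicate block, 3 genes were called in BALB/c, and 1645 genes and 1 member between the strains.

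Arrdc4 against Mlxip in BALB/c had r = 0.80 without both farthest libraries and 0.26 to 0.70 with 1 library left out, and in C57BL/6J -0.64 to 0.33. Arrdc4 against Mlx had r = 0.42 with group means off, -0.50 without both farthest libraries and -0.26 to 0.19 with 1 left out in BALB/c, and 0.94, -0.0815 and 0.0951 to 0.595 in C57BL/6J. Counts of Arrdc4 and Mlxipl limit what any alternative can show.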
